A study of Homo sapiens with 4 samples.

Results

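The subject is a set of 10 genes of the endoplasmic reticulum (ER) and its unfolded protein response: HSPA5, HSP90B1, HYOU1, DNAJB9, SDF2L1, CALR, PDIA4, MANF, HERPUD1 and XBP1. They were chosen by symbol from 59533 genes of the table, with earlier results of these data known. All 10 had values in all 4 libraries. HCC1937 is a breast cancer cell line and THP-1 a monocytic leukaemia cell line. Per the labels both are p53-/- and carry, after infection, the p53 mutant p53-R282W, and no library without that mutant was analysed here. The groups were HCC1937 with 0.3 µM decitabine (DAC, an inhibitor of DNA methyltransferases) for 5 days, HCC1937 untreated, THP-1 with 5 µM DAC for 2 days, and THP-1 untreated. The labels do not say how strongly the mutant is expressed, whether the cells are a clone, or how the untreated cells were handled.

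Each group is 1 library of RNA sequencing, so there is no spread between replicates and no p-value within a line. Values are FPKM, that is fragments scaled by gene length and library size. Judged by the smallest steps between values, a library holds an estimated 18700000 to 19740000 counted reads. Of 12 epithelial markers, 12 reached 1 FPKM in both HCC1937 libraries, and of 12 myeloid markers 12 did so in both THP-1 libraries. Of the 12 myeloid markers, 3 reached 1 FPKM in HCC1937 with DAC and 1 untreated. The myeloid markers summed to 12.0 FPKM in HCC1937 with DAC and 10.03 FPKM untreated, with CD33, PRTN3 and LYZ at 0 with DAC and MPO, ELANE, AZU1 and LYZ at 0 untreated. Of 12 lymphoid and plasma cell markers, 2 reached 1 FPKM in HCC1937 with DAC and 0 untreated. In THP-1, 4 of the 12 epithelial markers reached 1 FPKM with DAC and 3 untreated. The lymphoid and plasma cell markers that did so in THP-1 were 3 with DAC and 2 untreated, and the 12 summed to 41.0 and 34.2 FPKM. The part of these markers in the results was not tested. With GENCODE 29 exon lengths of 600 to 1000 bp, values of up to 5 reads fell on whole reads within 0.1 in 77.2% and 68% of genes in HCC1937 with DAC and untreated, against 47.7% and 40.5% in THP-1. The lengths behind the THP-1 values may thus differ from those used here. Levels are therefore set side by side between the lines only roughly, and the THP-1 read estimates and counting intervals are approximate. The dose and days of DAC also differ between the lines, so the cell line and the treatment schedule cannot be told apart.

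Proteins that enter the secretory route fold in the ER with the help of chaperones, lectins and disulfide isomerases. When unfolded proteins build up, the membrane sensors ERN1 (IRE1), ATF6 and EIF2AK3 (PERK) start the unfolded protein response, which raises transcription of these helpers through XBP1 and ATF6. HSPA5 (BiP) is both the main chaperone of the lumen and a brake on the sensors, and its mRNA is a common readout of the response. Cells without added stress express these genes too, more so where much protein is secreted.

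ATF6 and XBP1 act with the factor NF-Y at short promoter elements, which are shown here because 7 of the 10 genes share them. The ER stress response element, ERSE, is CCAAT and CCACG with any 9 bases between them, and its shorter relative, ERSE-II, is ATTGG and CCACG with any 1 base between them. Both were searched on both strands, without mismatch, in the RefSeq promoter table (GRCh38.p14, the build hg38 of the files), which holds 250 bases before and 50 after each gene start. ERSE occurred in 27 of 35116 promoters (0.0769%), and in those of HSPA5, HSP90B1, CALR and XBP1. ERSE-II occurred in 19 promoters (0.0541%), and in those of HERPUD1, SDF2L1 and HYOU1. In the sequences that follow, 5′ to 3′ on the strand of the gene, capitals mark the match, which reads as the reverse complement where it begins with CGTGG, and 5 bases are kept on each side.
HSPA5 (chr9:125241386-125241414, minus strand): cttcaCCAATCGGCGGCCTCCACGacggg
HSP90B1, first match (chr12:103930211-103930239, plus strand): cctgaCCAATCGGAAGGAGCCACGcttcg
HSP90B1, second match (chr12:103930316-103930344, plus strand): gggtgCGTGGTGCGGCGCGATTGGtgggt
CALR (chr19:12938379-12938407, plus strand): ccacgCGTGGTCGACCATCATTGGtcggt
XBP1 (chr22:28800598-28800626, minus strand): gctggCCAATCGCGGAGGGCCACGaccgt
HERPUD1 (chr16:56932020-56932040, plus strand): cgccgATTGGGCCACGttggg
SDF2L1 (chr22:21642109-21642129, plus strand): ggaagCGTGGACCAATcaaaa
HYOU1, first match (chr11:119057375-119057395, minus strand): cgtgaCGTGGTCCAATcccag
HYOU1, second match (chr11:119057269-119057289, minus strand): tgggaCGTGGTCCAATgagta

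The matches lay between 225 and 34 bases before the RefSeq start. That of XBP1 was nearest, its last base 34 bases before the start, and that of CALR farthest, its first base 225 bases before. Both matches of HSP90B1 lie within a GENCODE exon, since that annotation starts the gene further upstream. The whole upstream stretch of HSPA5, the gene with the largest loss in FPKM of the 10, shows its match in context, 66 to 48 bases before the start (chr9:125241344-125241593, minus strand): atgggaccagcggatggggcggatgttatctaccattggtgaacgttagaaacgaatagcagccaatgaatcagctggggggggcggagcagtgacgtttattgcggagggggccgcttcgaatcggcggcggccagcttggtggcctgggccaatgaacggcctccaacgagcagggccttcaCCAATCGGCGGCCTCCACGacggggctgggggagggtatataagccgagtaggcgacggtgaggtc
No exact match to either element was in the windows of DNAJB9, PDIA4 and MANF. These windows lie mostly inside the GENCODE genes, which start further upstream. That of DNAJB9 begins at 108569624 and the GENCODE gene at 108569568, and for MANF the positions are 51385041 and 51385047. The first window of PDIA4, on the minus strand, reaches 149028740, where the gene starts at 149028641. Sequence before those GENCODE starts was thus searched little or not at all. A further element of the response, UPRE, in the form TGACGTGG, occurred in 0.729% of promoters and among the 10 genes only in HYOU1, where it overlaps the first ERSE-II. In the form TGACGTGA it occurred in 0.45% of promoters and in 0 of the 10.

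**Figure D1:**
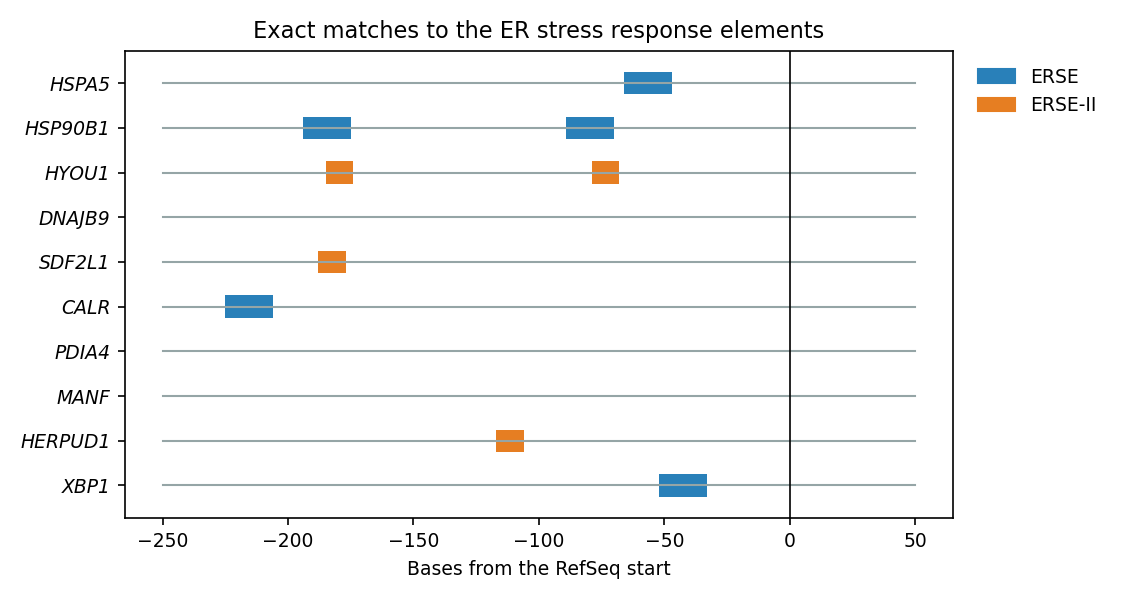
Places of exact ERSE (blue) and ERSE-II (orange) matches in the promoter window of each of the 10 genes, by bases from the RefSeq start at 0. Grey lines span 250 bases before to 50 after the start. 7 genes hold a match, HSP90B1 and HYOU1 hold 2 each, and DNAJB9, PDIA4 and MANF hold none.

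In HCC1937 the 10 genes stood lower with DAC, with DNAJB9 as the exception as deposited but not under upper-quartile scaling. HSPA5, HERPUD1, MANF and SDF2L1 were at least 2-fold lower. The summed level of all 10 was 1410 FPKM in HCC1937 with DAC and 2750 FPKM untreated, which is 0.50% and 0.945% of all FPKM in the table. Without HSPA5 the sums were 1023 and 1806 FPKM. In THP-1 the sum was 1782 FPKM with DAC and 1648 FPKM untreated, and none of the 10 was 2-fold apart. In such bulk samples fewer cells of a type and less RNA per cell cannot be told apart.

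Differences are DAC minus untreated on log2(FPKM + 1). Tested genes reached 1 FPKM in either library of a line, and those 2-fold or more apart on that scale were called. All 10 genes passed that filter in both lines and would have done so through either library. The 10 were chosen with earlier results of these data known, so the shares and medians that follow describe them and are no test. In HCC1937, 4 of the 10 were called lower, where 202 of 14058 genes were (1.44%). 0 of the 10 were called higher, where 10.3% of genes were. 9 of the 10 lay below 0 and 1 above, where 33.5% of genes lay below and 66.2% above. Among the 2954 genes that reached 20 FPKM, 2.23% were called lower and 4.77% higher. The median log2 difference of the 10 was -0.83, that of all tested genes 0.19 and that of the genes that reached 20 FPKM -0.02. In THP-1, 0 of the 10 were called in either direction, where 0.364% of 12075 genes were called lower and 1.14% higher. 6 of the 10 lay below 0 and 4 above, where 34.7% of genes lay below and 65% above. Among the 4036 genes of THP-1 that reached 20 FPKM, 0 were called lower and 7 higher (0.173%). The median of the 10 was -0.01, beside 0.07 for all tested genes.

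The HCC1937 table as a whole leaned to the higher side, with 1452 genes called higher (87.8% of calls), and this moved with scaling. With upper-quartile scaling 1063 genes were higher and 487 lower, so that 68.6% of calls were higher and all tested genes had a median of -0.08. With median-of-ratios scaling 80.7% of calls were higher and the median was 0.06. Relative to that median the 10 genes stood at -1.02 as deposited, -1.04 under median-of-ratios and -1.06 under upper-quartile scaling. Beside genes of like level the gap was smaller: as deposited, genes that reached 20 FPKM had a median of -0.02 and the 10 genes -0.83. The scalings added CALR to the called genes, and upper-quartile scaling also HSP90B1. The mRNAs of the mitochondrial genome moved beside this, at 9534 FPKM in sum with DAC and 5341 FPKM untreated, or 3.38% and 1.84% of the table, in HCC1937. Their part in the result was not tested.

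**Figure D2:**
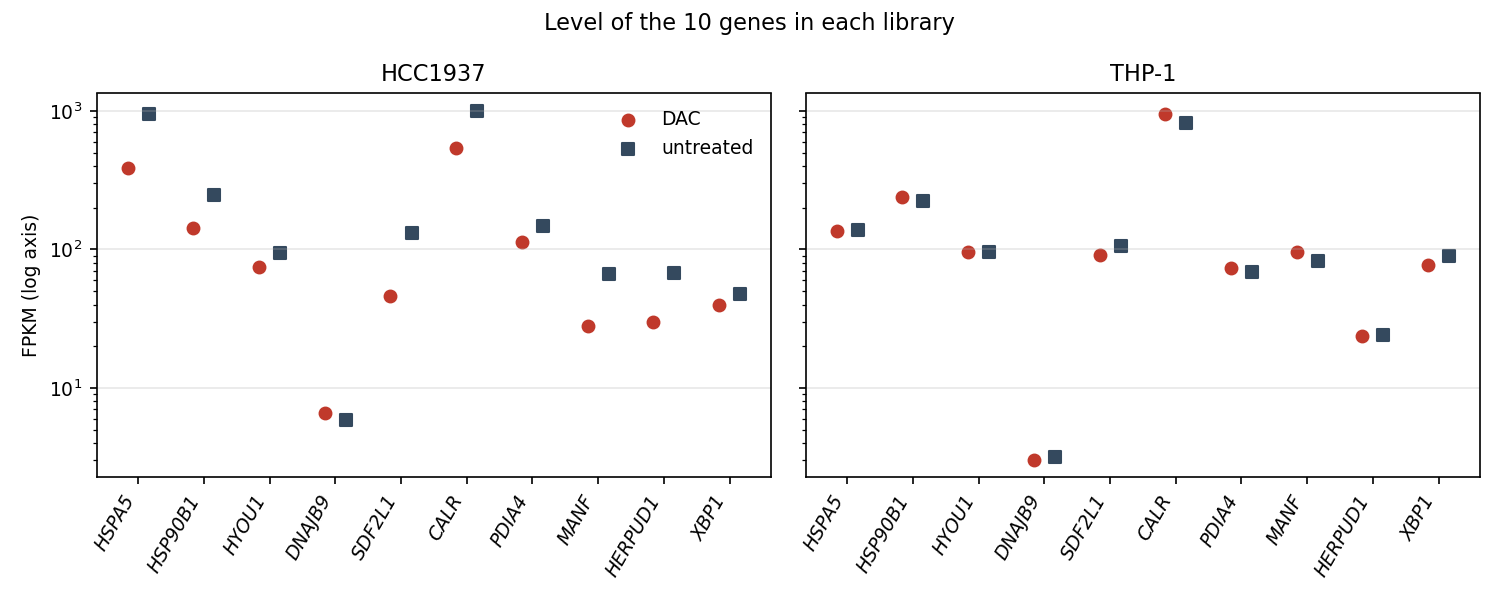
Level of each of the 10 genes in FPKM on a log axis, with DAC (red circles) left of untreated (dark squares), HCC1937 in the left panel and THP-1 in the right. Each point is 1 library. In HCC1937 the DAC point lies below the untreated point for 9 genes (for all 10 under upper-quartile scaling), and in THP-1 the points of each gene lie close together.

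HSPA5 (ENSG00000044574.7, chromosome 9, 125234853 to 125241330 in GRCh38, minus strand, as all gene positions here from GENCODE 29), the Hsp70-type chaperone of the lumen, stood at 388 FPKM in HCC1937 with DAC and at 943 FPKM untreated. In THP-1 it stood at 136.8 FPKM with DAC and at 137.8 FPKM untreated. The HCC1937 libraries thus stood well apart and the THP-1 libraries almost level. With DAC the HCC1937 level was 41.1% of the untreated level, with an exact (Clopper-Pearson) 95% interval of 40.5% to 41.7%. All such intervals rest on reads estimated from FPKM and cover counting error only, not the choice of scaling. In THP-1 it was 99.3% (96.7% to 102%), so as deposited no difference was detectable there at this depth. Its log2 difference there went from -0.01 to -0.08 under median-of-ratios and -0.06 under upper-quartile scaling, more than counting error covers. By level HSPA5 ranked 72 among the tested genes of HCC1937 with DAC and 27 untreated. Its change of -556 FPKM was the 9th most negative of all 14058 genes.

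HSP90B1 (GRP94, ENSG00000166598.14, chromosome 12, 103930107 to 103953645), the Hsp90 of the lumen, which folds integrins and Toll-like receptors, stood at 143 FPKM in HCC1937 with DAC and 247 FPKM untreated. That is 58.1% of the untreated level (56.9% to 59.4%), short of 2-fold. The THP-1 values were 241 and 225 FPKM with DAC and untreated, or 107% (104.9% to 109%). The DAC libraries of the lines thus lay on opposite sides of their untreated libraries. C12orf73 overlaps it on the opposite strand at 1.88 to 4.45 FPKM. Its processed pseudogenes HSP90B2P and HSP90B3P were at most 0.13 FPKM in any library that has a value.

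CALR (calreticulin, ENSG00000179218.13, chromosome 19, 12938578 to 12944489), a lectin chaperone of glycoproteins that also stores calcium, was the most abundant of the 10 in every library. It stood at 540 FPKM in HCC1937 with DAC and 999 FPKM untreated. This is 54.1% of the untreated level (53.3% to 54.9%), also short of 2-fold. Calreticulin mRNA in THP-1 was at 945 FPKM with DAC and 815 FPKM untreated, or 116% (114% to 117%). CALR was higher with DAC in THP-1 and lower in HCC1937, and its -459 FPKM in HCC1937 was the 14th most negative change of the table.

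The partners of HSPA5 did not share 1 size of difference. SDF2L1 (ENSG00000128228.4, chromosome 22, 21642261 to 21644298), which binds HSPA5 and its J-domain partner DNAJB11 and holds unfolded proteins in solution, stood at 46.1 FPKM in HCC1937 with DAC and 130.5 FPKM untreated. Its log2 difference of -1.48 was the largest of the 10 and ranked 45 from the lowest of all tested genes. SDF2L1 in THP-1 was at 91.5 FPKM with DAC and 106 FPKM untreated, on the same side but at 86.3% (81.2% to 91.6%). HYOU1 (GRP170, ENSG00000149428.18, chromosome 11, 119044189 to 119057202), which exchanges the nucleotide on HSPA5, stood at 75.2 FPKM in HCC1937 with DAC and 94.7 FPKM untreated. That is 79.4% (77.5% to 81.5%), a smaller difference than that of HSPA5. HYOU1 in THP-1 was at 95.8 and 96.5 FPKM with DAC and untreated, with an interval of the ratio that held 100% as deposited. HSPA5 was therefore 5.15 times HYOU1 in HCC1937 with DAC and 9.96 times untreated, while in THP-1 it was 1.43 times HYOU1 in both libraries.

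DNAJB9 (ERdj4, ENSG00000128590.4, chromosome 7, 108569568 to 108574850), the J-domain protein that brings HSPA5 to IRE1, was the least abundant of the 10. It stood at 6.61 FPKM in HCC1937 with DAC and 5.83 FPKM untreated, and at 3.03 and 3.16 FPKM in THP-1 with DAC and untreated. Its counting intervals held 100% in both lines (97.1% to 133% in HCC1937, 77.4% to 119% in THP-1), so no difference was detectable at this depth. DNAJB9 alone of the 10 was above its untreated level in HCC1937, and under upper-quartile scaling its log2 difference turned from 0.16 to -0.11. The genes PNPLA8 and THAP5 overlap it on the opposite strand at 1.34 to 4.14 FPKM. Whether counting used strand is not given in the sources used here.

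PDIA4 (ERp72, ENSG00000155660.10, chromosome 7, 149003062 to 149028641), which forms and shuffles disulfide bonds, stood at 113 FPKM in HCC1937 with DAC and 148 FPKM untreated, or 76.4% (74.0% to 78.8%). PDIA4 in THP-1 was at 73.9 FPKM with DAC and 69.3 FPKM untreated, or 107% (102% to 111%). The difference was small in both lines and of opposite direction.

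MANF (ENSG00000145050.16, chromosome 3, 51385047 to 51389397), a small protein that binds HSPA5 and is secreted under ER stress, stood at 28.2 FPKM in HCC1937 with DAC and 66.0 FPKM untreated. This is 42.7% of the untreated level (40.0% to 45.7%). MANF in THP-1 was at 95.2 FPKM with DAC and 82.4 FPKM untreated, or 115% (111% to 121%). MANF had the widest gap of the 10 between the lines, with a log2 difference in HCC1937 that was 1.40 below that in THP-1.

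HERPUD1 (ENSG00000051108.14, chromosome 16, 56932048 to 56944863), a membrane protein that helps to assemble the ubiquitin ligase complex of ER-associated degradation, stood at 29.9 FPKM in HCC1937 with DAC and 67.6 FPKM untreated. In THP-1 it stood at 23.7 FPKM with DAC and 24.1 FPKM untreated. With DAC this is 44.3% of the untreated level in HCC1937 (42.4% to 46.3%) and 98.5% in THP-1 (93.1% to 104%). HERPUD1 was thus called lower in HCC1937 and almost level in THP-1. With a pseudocount of 10, HERPUD1 (-0.96) and MANF (-0.99) fell just short of the call in HCC1937, at ratios that do not depend on the pseudocount.

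XBP1 (ENSG00000100219.16, chromosome 22, 28794555 to 28800597), the transcription factor whose mRNA IRE1 splices, stood at 39.7 FPKM in HCC1937 with DAC and 48.0 FPKM untreated. In THP-1 it stood at 77.3 FPKM with DAC and 89.0 FPKM untreated. As deposited, the ratios were alike in the 2 lines, 82.8% (78.3% to 87.6%) and 86.8% (83.4% to 90.3%). XBP1 was then the gene of the 10 whose log2 differences lay closest between the lines (-0.27 and -0.20). Under upper-quartile scaling they were -0.57 in HCC1937 and -0.26 in THP-1, and those of DNAJB9 lay closer (-0.11 and -0.09). Gene-level values do not separate the spliced from the unspliced form.

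**Figure D3:**
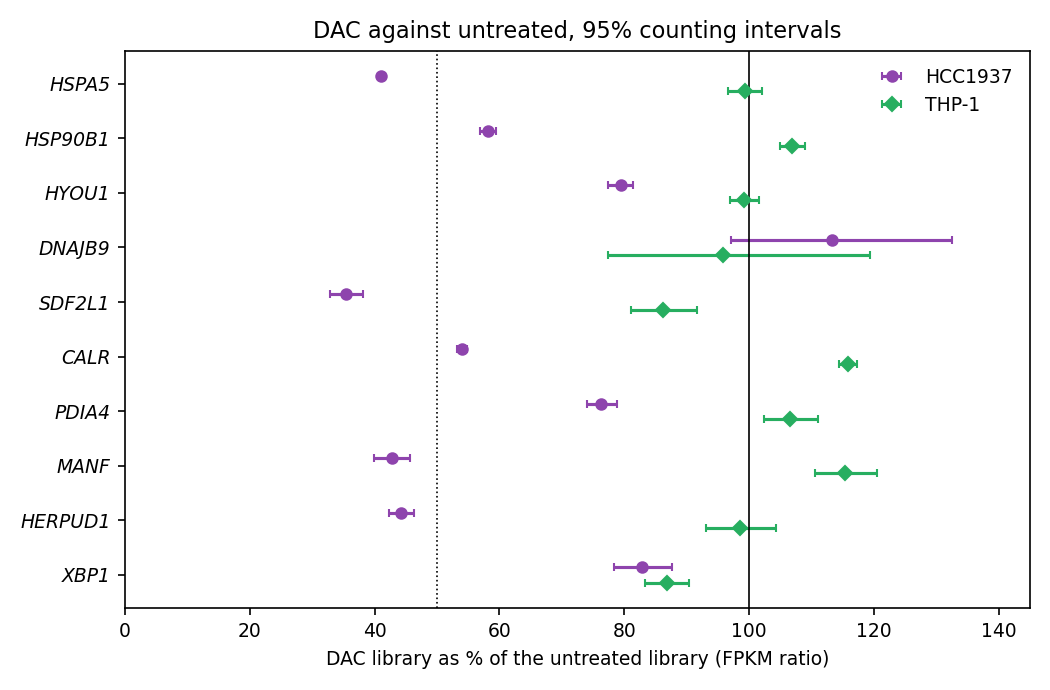
FPKM of the DAC library as a percentage of the untreated library for each gene, in HCC1937 (purple circles) and THP-1 (green diamonds), with exact 95% counting intervals. The solid line marks equal levels and the dotted line 2-fold lower. In HCC1937 the whole interval of HSPA5, SDF2L1, MANF and HERPUD1 lies left of the dotted line, and no THP-1 interval comes near it.

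The order of the 10 genes by level therefore differed between the libraries. In HCC1937 CALR and HSPA5 together made up 65.8% of their summed FPKM with DAC and 70.6% untreated. HSPA5 alone was 27.5% with DAC and 34.3% untreated. HSPA5 was 7.68% of the sum in THP-1 with DAC and 8.36% untreated. CALR and HSP90B1 stood above it in both THP-1 libraries. HSPA5 in HCC1937 with DAC was still above both THP-1 libraries, as far as levels can be set side by side between the lines.

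Over both lines, limma was fitted to log2(FPKM + 1) of all 4 libraries with the line as a block. It called 0 of 13984 genes in either direction at an adjusted p (Benjamini-Hochberg) of 0.05, or 0% of those tested. At an unadjusted p under 0.05 there were 103 lower and 462 higher genes. For the 10 genes the limma adjusted p ran from 0.69 (SDF2L1, HSPA5 and others) to 0.90 (DNAJB9). The mean log2 difference over the lines was -0.65 for HSPA5 (SE 0.34) and -0.85 for SDF2L1 (SE 0.34). Both means rest mainly on HCC1937, since the THP-1 differences were -0.01 for HSPA5 and -0.21 for SDF2L1. Over the alternative settings the adjusted p of the 10 ran from 0.69 to 1. Apart from what limma borrows from other genes, the error of this fit comes from how unlike the HCC1937 and THP-1 differences were. Genes lower mainly in HCC1937 thus had a large SE, such as HSPA5, HERPUD1 (0.31) and MANF (0.37), beside 0.15 for XBP1. The 0 calls therefore cannot show whether levels differed with DAC in 1 line only. Whether the response differed between the lines could not be tested, since each group is 1 library.

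**Figure D4:**
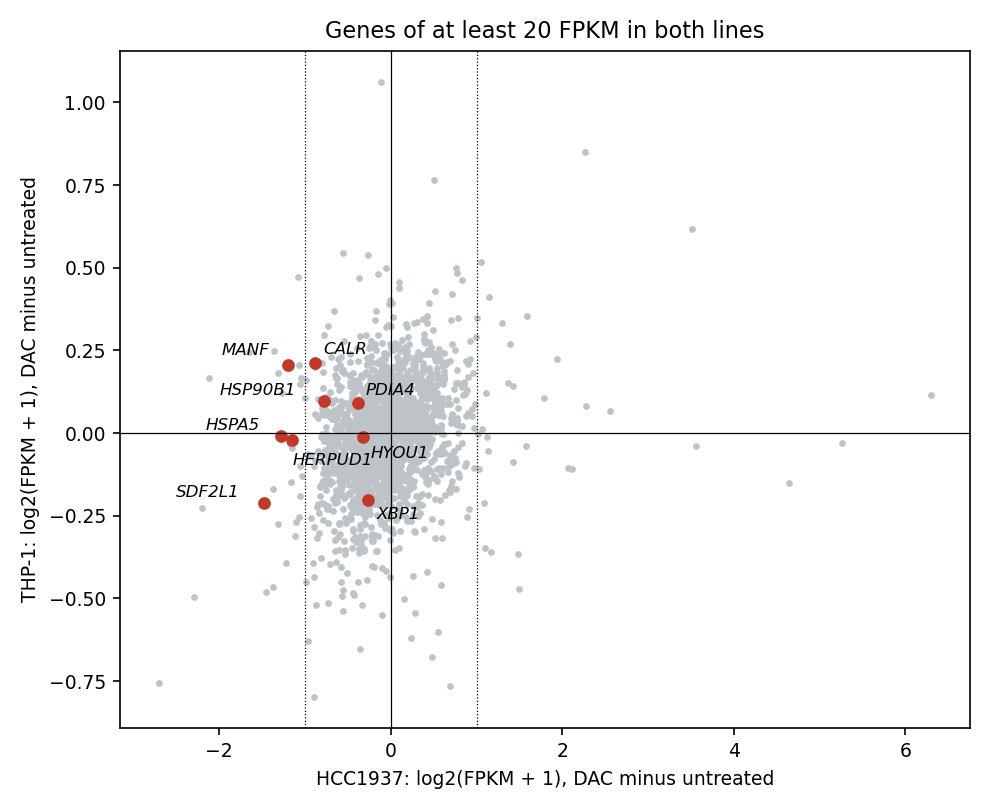
Log2 difference, DAC minus untreated, in HCC1937 (horizontal) against that in THP-1 (vertical) for the 1972 genes with at least 20 FPKM in a library of each line. Red points are the 9 of the 10 genes that reach that level, and dotted lines mark 2-fold in HCC1937. HSPA5, HERPUD1, MANF and SDF2L1 lie left of the dotted line while their THP-1 values stay between -0.21 and 0.21.

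Among those 1972 genes, 31 were at least 2-fold lower in HCC1937 (1.57%). 0 of these were so in THP-1, where 0 of the 4036 genes that reached 20 FPKM were. The 31 held 4 of the 9 that reach that level. The 5 genes whose differences over both lines lay nearest to those of HSPA5, by Euclidean distance, were HMGCS1, an enzyme of sterol synthesis, ZC3H12A, an RNase that limits inflammatory mRNAs, HERPUD1, SMCO4 and ZDHHC12, a palmitoyltransferase. HMGCS1, the nearest, stood at 30.3 FPKM in HCC1937 with DAC and 69.7 FPKM untreated, and at 63.2 and 64.7 FPKM in THP-1 with DAC and untreated. Its distance to HSPA5 was 0.11 on the log2 scale. These distances rest on 2 differences per gene and describe these libraries only.

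The rest of the pathway was read through 10 further lists with 207 genes. Of 199 tested in HCC1937, 3 were called lower and 5 higher, where 1.44% and 10.3% of all tested genes were. Their median log2 difference was -0.05, beside 0.19 for all tested genes and -0.02 for those that reached 20 FPKM. Below 0 lay 112 of the 199 and above it 87, where 33.5% and 66.2% of all tested genes did. A lean to the lower side relative to all tested genes was thus not particular to the 10. Beside genes that reached 20 FPKM the lists hardly leaned, at -0.05 against -0.02. The part of expression level in this was not tested. In THP-1, 0 of 187 were called in either direction, at a median of 0.04. As deposited, the medians of the 10 lists in HCC1937 ran from -0.23 to 0.13, beside -0.83 for the 10 genes.

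Other ER chaperones and cochaperones had 0 of 22 called in HCC1937, at a median of -0.12. CANX, the membrane-bound relative of CALR, stood at 306 FPKM with DAC and 193 FPKM untreated, the other way from CALR. DNAJB11, a J-domain partner of HSPA5, stood at 35.1 and 32.8 FPKM with DAC and untreated. On the lower side were CRELD1 (2.31 and 5.32 FPKM), PPIB, a prolyl isomerase (104 and 183 FPKM), and SIL1, another nucleotide exchange factor of HSPA5 (12.3 and 21.3 FPKM), all short of the call. Of the 22 tested in THP-1 0 were called, and the largest differences were those of FKBP7 (2.40 and 1.36 FPKM with DAC and untreated), DNAJC10 (12.3 and 8.59 FPKM) and PPIC (24.9 and 18.7 FPKM).

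Other disulfide isomerases and ER oxidases had 1 of 22 higher and 1 lower in HCC1937, at a median of -0.10. The higher was PDIA2, an isomerase best known from pancreas, at 6.30 FPKM with DAC and 0.48 FPKM untreated. The lower was GPX8, an ER peroxidase, at 3.27 and 7.71 FPKM. The abundant P4HB and PDIA3 stood at 253 and 139 FPKM with DAC and at 291 and 147 FPKM untreated. QSOX1, a sulfhydryl oxidase, stood at 59.7 FPKM with DAC and 96.4 FPKM untreated. None of 19 was called in THP-1, with TMX3 (20.7 and 16.5 FPKM), TMX1 (17.6 and 15.0 FPKM) and ERO1A (9.07 and 10.5 FPKM) the farthest apart.

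Genes of ER-associated degradation, in which HERPUD1 works, had 0 of 27 called in HCC1937 at a median of 0.07. SYVN1, the ubiquitin ligase that HERPUD1 binds, stood at 29.5 FPKM with DAC and 27.5 FPKM untreated, and SEL1L, its partner, at 7.17 and 8.85 FPKM. Large differences within the list were those of MAN1B1 (15.5 and 22.9 FPKM) and FAF2 (22.5 and 16 FPKM). None of 23 was called in THP-1, with UBE2J1 (20.6 and 25.1 FPKM), UBE2G2 (42.5 and 35.3 FPKM) and DERL2 (6.39 and 5.31 FPKM) the farthest apart.

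The route into and out of the ER had no call in either line. In HCC1937 the calnexin cycle and N-glycosylation list had 0 of 21 called (median -0.09), with MOGS and GANAB, the glucosidases that trim new glycans, at 30.5 and 177 FPKM with DAC and at 49.9 and 249 FPKM untreated, and TMEM258 at 18.9 and 30.2 FPKM. The translocon list had 0 of 20 (median -0.04), with SSR2 at 25.0 FPKM with DAC and 49.3 FPKM untreated, SRPRA at 75.5 and 115.9 FPKM and SEC61A2 at 4.27 and 2.01 FPKM. Export, retrieval and ER-phagy genes had 0 of 21 (median -0.08), with SEC13, a coat protein of transport vesicles, at 44.1 FPKM with DAC and 77.7 FPKM untreated, LMAN1 at 11.6 and 18.4 FPKM and RETREG1 at 1.72 and 0.70 FPKM. In THP-1 these lists had 0 of 20, 0 of 19 and 0 of 20 called. Their largest differences there were those of OSTC (55.9 and 48.0 FPKM with DAC and untreated), SPCS3 (25.7 and 18.4 FPKM) and SAR1A (26.6 and 22.3 FPKM).

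The sensors themselves were not called. ERN1 stood at 2.72 FPKM in HCC1937 with DAC and 3.23 FPKM untreated, EIF2AK3 at 3.70 and 3.68 FPKM, and ATF6 at 6.99 and 9.06 FPKM. ATF6B, the relative of ATF6, stood at 31.8 and 52.9 FPKM. Of 14 sensors and regulators, 1 was called higher and 0 lower (median -0.00), the higher being CREB3L1, an ATF6-like factor of secretory cells, at 1.84 FPKM with DAC and 0.31 FPKM untreated. None of 12 was called in THP-1, where CREB3 differed most, at 15.9 FPKM with DAC and 13.7 FPKM untreated.

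The PERK and ATF4 arm, which serves amino acid supply, had a median of -0.23 in HCC1937, the lowest of the 10 lists, with 1 of 17 called higher and 1 lower. ATF4 stood at 121 FPKM with DAC and 219 FPKM untreated, DDIT3 (CHOP), a factor tied to cell death under stress, at 26.6 and 40.2 FPKM, and TRIB3 at 94.6 and 157 FPKM. The lower call was ASNS, asparagine synthetase, at 1.57 and 4.27 FPKM, and the higher was ATF5 at 27.4 and 5.79 FPKM. Of 18 tested in THP-1 0 were called, at a median of -0.16. PSAT1 and PHGDH, of serine synthesis, stood there at 68.5 and 175 FPKM with DAC and at 98.7 and 252 FPKM untreated. TRIB3 stood there at 45.0 FPKM with DAC and 64.6 FPKM untreated.

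Heat shock proteins and related genes of the cytosol and mitochondria had 1 of 21 higher and 1 lower in HCC1937, at a median of 0.13. HSPA8, the cytosolic relative of HSPA5, stood at 271 FPKM with DAC and 265 FPKM untreated, and HSP90AA1, a cytosolic relative of HSP90B1, at 365 and 254 FPKM. The higher call was HSPB8, a small heat shock protein, at 7.92 and 0.18 FPKM, and the lower LONP1, a mitochondrial protease, at 21.3 and 56.6 FPKM. In THP-1 0 of 19 were called, and HSPA8 stood at 664 FPKM with DAC and 520 FPKM untreated. Of 14 ER calcium handling genes tested in HCC1937 (median 0.01), 0 were lower and the 1 called higher was the calcium pump ATP2A3 at 4.90 FPKM with DAC and 1.75 FPKM untreated. Of 15 tested in THP-1 0 were called.

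**Figure D5:**
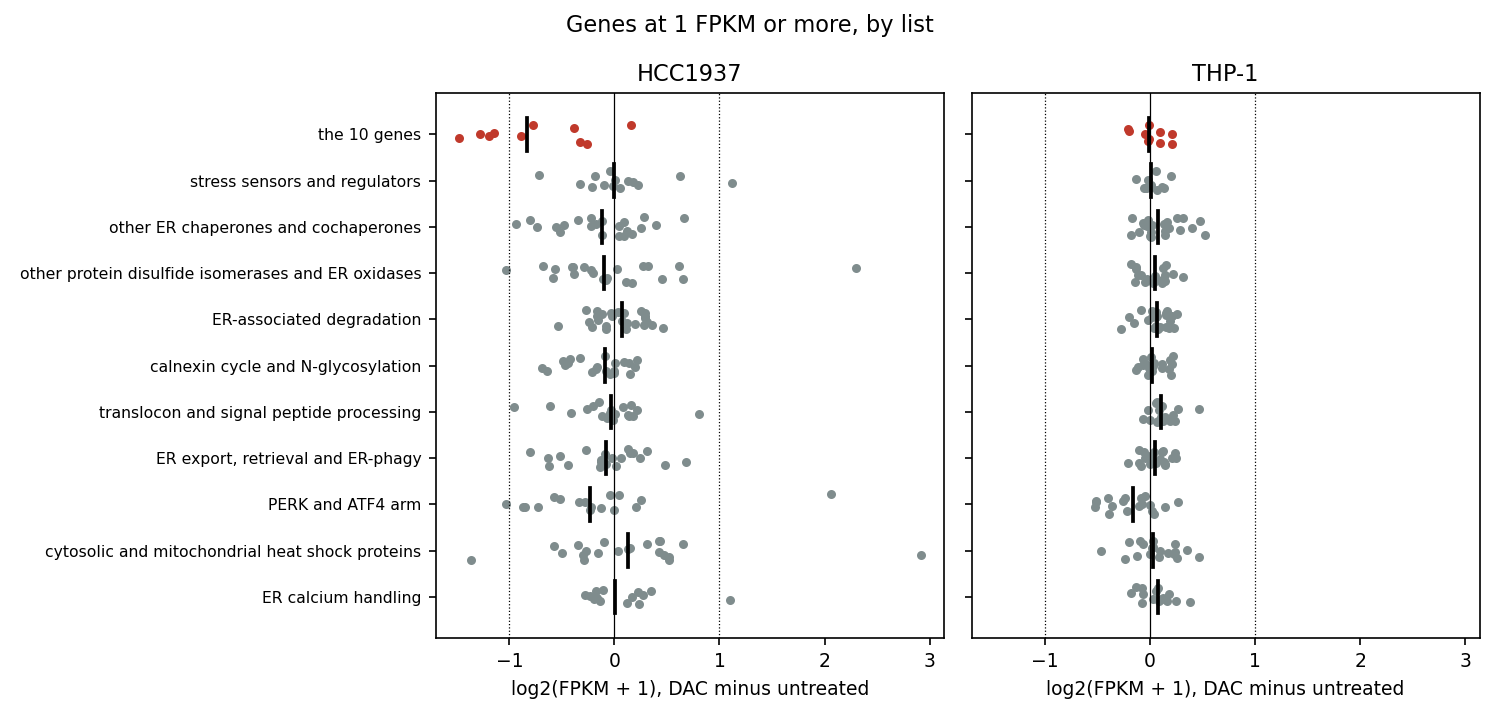
Log2 difference, DAC minus untreated, of each gene at 1 FPKM or more, by list, in HCC1937 (left) and THP-1 (right). Black bars are medians, and dotted lines mark 2-fold. In HCC1937 the median of the 10 genes is -0.83 (red), and the medians of the other lists lie between -0.23 and 0.13.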

How the data were processed

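Libraries were made from purified mRNA with a TruSeq kit, per the labels' protocols. FastQC, cutadapt, STAR, HTSeq and the build hg38 are named in the submitters' processing notes, and versions, annotation and use of strand are not given in the sources used here. The authors' deposited table gives no unit, and its values were read as FPKM, because in genes of 50 to 250 bp (exons, GENCODE 29) value times length fell on whole reads within 0.1 in 92.0% to 93.3% of genes. This step also gave the depths. Lines of 76 repeated symbols were left out. Of the 59533 genes kept, 23440 have THP-1 values. Reads were estimated from FPKM, exon length and depth. Gene positions are from GENCODE 29 and sequences from RefSeq.

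Genes were named by rule: the 10 genes, from each other list and line some of the 3 largest differences and all called genes, and the 5 genes nearest to HSPA5. CANX, DNAJB11, P4HB, PDIA3, SYVN1, SEL1L, the sensors, ATF4, DDIT3, TRIB3, HSPA8, HSP90AA1 and the genes of the closing observations were added after their values were seen. The members and lists were chosen with earlier results of these data known. Alternatives were other scalings, pseudocounts, filters and folds. The fit over both lines used limma 3.58.1 in R 4.3.3. It was also run on simulated counts in which the changed genes had the same fold in both lines. That run does not show how the fit performs where the lines differ, as they did here. Tables were handled in Python 3.11.15 (pandas 2.3.3), and intervals came from scipy 1.17.1.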

Additional observations from a re-analysis of the deposited data

Results flagged for a closer look

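For 5 of the 10 genes the HCC1937 and THP-1 libraries with DAC lay on opposite sides of their untreated levels, which is why they are given here. With 1 library a group that difference was not tested. The log2 difference in HCC1937 minus that in THP-1 was -1.40 for MANF, -1.10 for CALR, -0.87 for HSP90B1, -0.48 for PDIA4 and 0.20 for DNAJB9. The lines differ in dose and days of DAC, which cannot be told apart from the line. For DNAJB9 the counting interval held equal levels in both lines, and under upper-quartile scaling its difference lay below 0 in both. The THP-1 differences of HSP90B1 and PDIA4 were 0.10 and 0.09 as deposited. Under median-of-ratios scaling both were 0.02, close to equal levels, while CALR and MANF stood at 0.14 and 0.13.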

How the results depend on the processing

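In HCC1937, 4 of the 10 genes were called lower as deposited, without a filter, with a filter at 5 FPKM and with a pseudocount of 0.1, against 5 under median-of-ratios scaling, 6 under upper-quartile scaling, 6 at 1.5-fold and 2 with a pseudocount of 10 (HSPA5 and SDF2L1, while MANF at -0.99 and HERPUD1 at -0.96 fell just short). A counting interval wholly beyond 2-fold, chosen after seeing the data, also gave 4. In none of these settings was any of the 10 called higher in HCC1937 or called at all in THP-1, where the filter at 5 FPKM left 9 of the 10 to test. Over all genes of HCC1937, 202 were lower and 1452 higher as deposited, against 383 and 2323 with a pseudocount of 0.1, 31 and 131 with a pseudocount of 10, 108 and 550 with a filter at 5 FPKM, 831 and 3084 at 1.5-fold, and 487 lower under upper-quartile scaling. Over all genes of THP-1, 44 were lower and 138 higher as deposited, against 74 and 297 with a pseudocount of 0.1, 0 and 3 with a pseudocount of 10, 4 and 42 with a filter at 5 FPKM, and 121 and 398 at 1.5-fold. A higher filter tests fewer genes. The limma fit called 0 genes in every setting run, which again cannot show whether levels differed with DAC in 1 line only. Without the line block 0 lower and 3 higher genes had an unadjusted p under 0.05. No called difference of the 10 changed sign under any setting. Scaling still moved many differences by more than counting error covers. Of 20 differences over both lines, 16 moved so under median-of-ratios and 14 under upper-quartile scaling. With 1 library a group, leaving out a library leaves no comparison in that line. The limma fit paired the libraries by line, and no pairing by replicate number could be made, since the labels give none. DNAJB9 had the fewest estimated reads of the 10, 170 to 351 a library, which limits it most.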

Other observations

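Genes outside the 10 that hold an exact ERSE or ERSE-II in the same promoter window were read as well, a list made after the values were seen. Of 44 symbols with a match, 7 belong to the 10. Of the other 37, 23 were tested in HCC1937, with 0 called in either direction and a median log2 difference of -0.01, 12 below 0 and 11 above. The 7 with a match had 3 called lower there, where 1.44% of all tested genes were, at a median of -0.89. Many of the 23 stood at far lower FPKM than the 7. The largest differences among the 23 were those of EIF2A, a translation factor (11.7 FPKM with DAC and 23.0 FPKM untreated), SETD3 (21.2 and 12.2 FPKM) and ZNF17 (2.84 and 1.29 FPKM). A few others, picked by their known role in the ER after their values were seen, follow. SERP1, a translocon-associated protein, stood at 74.6 FPKM in HCC1937 with DAC and 109.1 FPKM untreated. PDIA6, a disulfide isomerase, stood at 69.7 FPKM with DAC and 103.5 FPKM untreated. CRELD2, a secreted ER stress protein, stood at 14.4 and 15.7 FPKM, and FICD, the enzyme that modifies HSPA5 with AMP, at 2.67 and 1.97 FPKM. CANX, with a match as well, lay on the higher side (306 and 193 FPKM). MANF, without a match in its window, was among the genes called lower, but that window lies almost wholly inside the GENCODE gene. In THP-1, 0 of 28 tested genes with a match were called, at a median of 0.03.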
